A study of Mus musculus with 15 samples.

Results

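The mouse genes Sdk1, Fbxl7, Egflam, Rnf144a, Prss12, Dio2, Pde7b, Tll1 and Tril are described here. They are 9 of the 55471 genes in the deposited count table, and they were picked from the counts of experiment 2 because they had almost no reads in the libraries of the genotype labels EF or hr and many in those of the label ha. The levels in EF, hr and ha are therefore a description of the choice, and no test of ha against EF or hr is given for these 9 genes. The working name of the set, genes expressed only in ha, did not hold across the series. In experiment 1, run on another flowcell, all 63 values of the 9 genes in 7 libraries were above 0, and 56 of them were at 1 CPM or more (CPM, a gene's count scaled to a common library total). They are called the ha-on genes of experiment 2 below.

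The libraries were made from poly(A) RNA of mouse cells labelled MSCLCs, a term left without explanation. Bone mesenchymal stem cells, YAP1, the fusion oncogene EWS::FLI1 and IGF-1 are in the title of the series. Experiment 1 compared 3 wild-type libraries, labelled MSC and numbered 202, 234 and 237, with 4 labelled EFPrx1MSCLC and numbered 219, 221, 225 and 229. Experiment 2 held 2 EF libraries, 2 ha and 4 hr, which the series design names as EFPrx1, ha-EFPrx1 and hr-EFPrx1. All 8 thus carry EFPrx1, there is no wild-type library among them, and every title has the number 221. The titles of ha also carry Combi-T and those of hr Combi-uns, terms the labels do not explain. Libraries of EF, ha and hr are numbered here by the last digits of their titles. WT is written in the titles of MSC 234 and 237 and not in that of MSC 202, which is counted as wild type from its genotype label and the 3 WT of the series design. The labels do not say what ha and hr stand for, what drives EFPrx1, how old the animals were, or whether libraries of a group came from separate cultures or animals. The p-values measure only the spread between libraries, which may be technical.

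The 9 genes act at different places in a cell. Sdk1 is a cell adhesion molecule of the immunoglobulin superfamily. Egflam (pikachurin), Prss12 (neurotrypsin) and Tll1 (a tolloid-like metalloproteinase) are secreted proteins that work on the extracellular matrix: pikachurin binds dystroglycan, neurotrypsin cleaves agrin, and tolloid-like proteinases remove the C-propeptides of fibrillar procollagens. Fbxl7 and Rnf144a are parts of the ubiquitin system. Dio2 makes active thyroid hormone inside cells, Pde7b hydrolyses cAMP, and Tril is a membrane protein that assists toll-like receptors. Mesenchymal stromal cells are known for making collagen-rich matrix and for forming bone, cartilage and fat.

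The promoters of these genes did not share one composition. RefSeq windows of 300 bases on GRCm38.p6, from 250 bases before to 50 after the annotated start, were found for 9 of 9 genes, and 32851 such windows served as the background. GC content was 78.3% for Sdk1, between 61.3% and 67.7% for Fbxl7, Egflam, Rnf144a, Prss12 and Tril, 55.7% for Pde7b, 46.3% for Tll1 and 44.7% for Dio2, where the median of all windows was 52.7%. The ratio of observed to expected CpG was 1.218 for Sdk1, at the 99.7 percentile of all windows, and 0.202 for Dio2, at the 29.0 percentile. The 3 sequences shown span this range: Sdk1 is the most CpG-rich and Dio2 the most CpG-poor. Egflam had the largest change of the 9 between the groups of experiment 1. Each is the part of the window before the start that lies outside annotated exons, from 5′ to 3′ on the gene's strand, and capitals mark the letters of the AP-1, cAMP response element, TEAD and TATA motifs named below; matches to CCAAT and GGGCGG are left in lower case.
Sdk1, chr5:141241284-141241489, plus strand: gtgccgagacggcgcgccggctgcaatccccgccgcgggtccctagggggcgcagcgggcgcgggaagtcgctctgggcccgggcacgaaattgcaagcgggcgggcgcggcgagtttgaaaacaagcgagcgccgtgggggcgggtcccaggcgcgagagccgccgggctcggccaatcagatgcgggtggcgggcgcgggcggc
Egflam, chr15:7398396-7398645, minus strand: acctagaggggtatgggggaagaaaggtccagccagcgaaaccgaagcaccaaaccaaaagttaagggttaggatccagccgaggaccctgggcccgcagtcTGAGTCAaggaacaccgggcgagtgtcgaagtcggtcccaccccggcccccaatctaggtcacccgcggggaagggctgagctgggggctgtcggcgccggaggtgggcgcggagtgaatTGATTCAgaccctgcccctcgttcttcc
Dio2, chr12:90739039-90739288, minus strand: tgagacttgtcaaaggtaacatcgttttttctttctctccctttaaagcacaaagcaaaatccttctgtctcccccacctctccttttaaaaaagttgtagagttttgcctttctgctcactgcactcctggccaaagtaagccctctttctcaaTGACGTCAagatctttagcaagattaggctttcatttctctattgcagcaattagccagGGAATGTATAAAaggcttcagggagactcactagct

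In the Egflam window the capitals are 2 matches to the AP-1 letters TGANTCA, which 7.81% of all windows hold on either strand. In the Dio2 window they are the cAMP response element TGACGTCA, held by 1.79% of windows, followed by GGAATG, the core letters of TEAD sites (TEAD proteins are the DNA-binding partners of YAP1), held by 14.7% on either strand, which runs straight into TATAAA, searched on the gene's strand only and held by 8.32%. In the full windows the TEAD letters were also in Tll1, so 2 of 9 genes had them. The pair GGAAGGAA, the kind of repeat that EWS::FLI1 is known to bind, was in the Pde7b window alone among the 9, and in 3.79% of all windows. The RefSeq start used for Pde7b lies inside the span of the counted gene given below, so its window is not at the outer end of that gene. CCAAT was in Sdk1, Egflam and Tll1, against 37.4% of all windows, and GGGCGG in Sdk1, Fbxl7, Egflam, Rnf144a and Tril, against 35.7%; both were searched on either strand. No motif searched was in all 9 windows, and a match is only a match of letters.

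Library totals ran from 11195431 to 16378416 expected counts in experiment 2 and from 14906251 to 26833939 in experiment 1. Some facts on the libraries bear on what follows. EF 1 and EF 2 differed by 1.35 times the sampling variance of their counts, and hr 1-1 from hr 1-2 and hr 2-1 from hr 2-2 by 1.29 times, while the 2 ha libraries differed by 22.7 times and hr libraries of different pairs by 16.6 to 18.6 times. The EF libraries and each hr pair were thus close to repeat counts of a single sample, and tests in experiment 2 are also given with these pairs summed. In experiment 1, MSC 202 stood apart from MSC 234 and 237 (151 and 105 times the sampling variance, against 12.9 between those 2), and EFPrx1MSCLC 221 and 229 lay closer to each other (8.11 times) than other pairs of that group (51.6 to 103 times). The mesenchymal markers fixed for the cell type check were present, with 12 of 12 at 1 CPM or more in every library. They summed to 20100 CPM in both ha libraries, 14400 and 14500 CPM in EF and 13000 to 15100 CPM in hr. The sums were 14800 to 19300 CPM in MSC and 5740 to 14200 CPM in EFPrx1MSCLC. The markers did not move as one. Col1a2 was at 9020 and 8392 CPM in ha 1 and ha 2, against 3635 to 3929 CPM in EF and hr. Prrx1, Pdgfra, Pdgfrb, Thy1, Col1a1 and Ly6a were also higher in both ha libraries. Vim was lower, at 1839 and 2193 CPM against 4046 to 5670 CPM, and so was Cd44. The part of these differences in the results was not tested. Xist, which coats the inactive X chromosome, was at 0.357 and 0.0794 CPM in EF, 125 to 445 CPM in hr, 381 and 968 CPM in ha, and 1306 CPM in EFPrx1MSCLC 221, which has the same title number as EF. The Y chromosome genes Ddx3y and Eif2s3y were at 0 CPM in EF, hr and ha, and Uty and Kdm5d were at 0.0893 CPM or less. The EF libraries thus had almost no Xist and almost no RNA of these Y chromosome genes. Xist was high in hr, where the 9 genes were near 0, and its part in any result was not tested. The labels do not say whether ha and hr were made from the cells of the EF libraries, so a fold over EF compares labelled groups and not a line with its parent.

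In EF and hr together, the 9 genes had 54 values, of which 39 were 0 and 50 were at or under 3 counts. The 2 EF libraries held 4 counts of the 9 genes in all, and no EF value exceeded 1 count. The 4 hr values above 3 counts were Fbxl7 (6 counts in hr 2-1), Rnf144a (4 in hr 1-2) and Prss12 (16 in hr 2-1 and 18 in hr 2-2). In ha the lowest value was 134 counts and the highest 4097. Summed over the 9 genes, the level was 389 and 587 CPM in ha, 0.0893 and 0.238 CPM in EF, and 0.17 to 1.93 CPM in hr. In experiment 1 the same sum was 41.9 to 101 CPM in MSC and 101 to 258 CPM in EFPrx1MSCLC, with 225 CPM in EFPrx1MSCLC 221. In bulk RNA, fewer cells that express a gene and less RNA per cell cannot be told apart. Folds below are ratios of summed counts per summed library total, with 95% exact binomial intervals that cover counting error only; where a group had no count, the fold is a lower bound against a floor of 3 counts over that group.

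**Figure D1:**
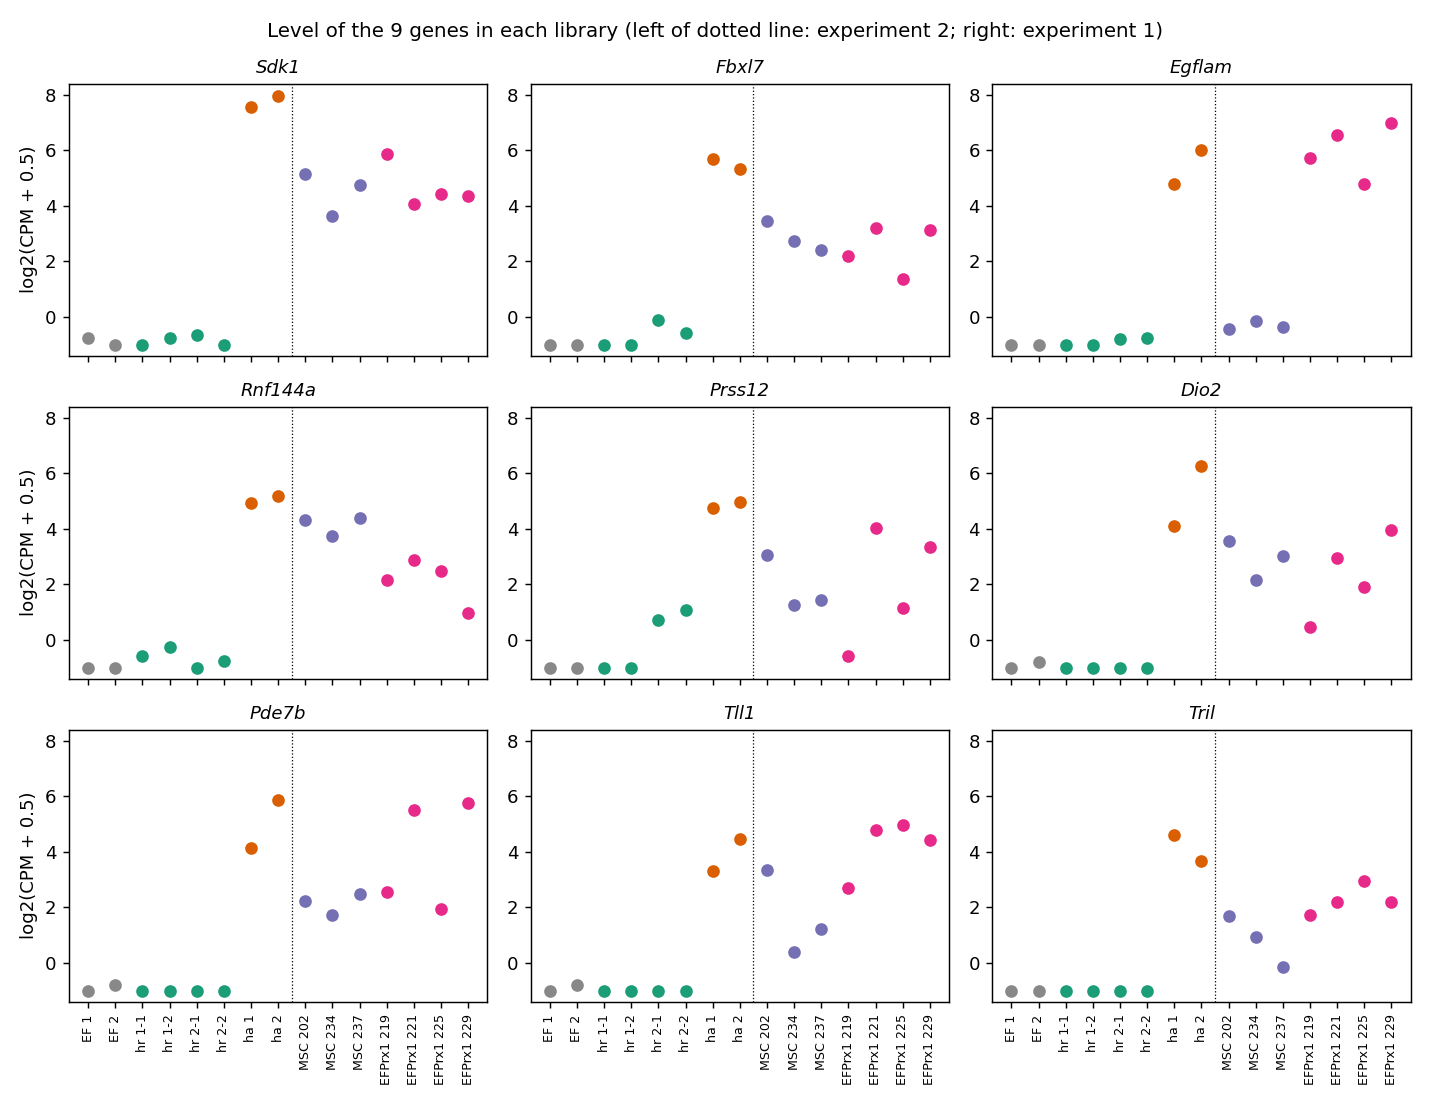
Level of each of the 9 genes as log2(CPM + 0.5), 1 point per library, coloured by genotype label; the dotted line separates experiment 2 (EF, hr, ha) from experiment 1 (MSC and EFPrx1MSCLC, shortened to EFPrx1). Points at the bottom are libraries with no or almost no counts. In every panel both ha libraries are high. Egflam stays near the floor in all 3 MSC libraries, and the other 8 genes are above 1 CPM in at least 2 of them.

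Sdk1 (ENSMUSG00000039683, chr5:141241490-142215586, plus strand), the adhesion molecule, was the most abundant of the 9 in ha, also per length, at 19.8 CPM per kb of exon. Its level was 188 CPM in ha 1 and 250 CPM in ha 2, against 1 count in EF 1, none in EF 2, and 0, 1, 2 and 0 counts in hr 1-1, 1-2, 2-1 and 2-2. The summed ratio was 5261-fold over EF (interval 944 to 207837) and 3607-fold over hr (1234 to 17496). In experiment 1 the level was 35.1, 11.9 and 26.5 CPM in MSC 202, 234 and 237, and 57.8, 16.4, 20.9 and 19.8 CPM in EFPrx1MSCLC 219, 221, 225 and 229. Both groups of experiment 1 overlapped, and every library there was below both ha libraries.

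The 3 secreted matrix genes differed most among themselves outside ha. Egflam (ENSMUSG00000042961, chr15:7206120-7398395, minus strand) was at 27.3 and 64.2 CPM in ha 1 and ha 2, with no count in EF and 1 count each in hr 2-1 and hr 2-2. That is at least 373-fold higher than EF and 1151-fold higher than hr (interval 318 to 9512); without ha 2 these were at least 217-fold and 669-fold. It was the 1 gene of the 9 that was also close to 0 in all 3 wild-type libraries, with 6, 6 and 4 counts in MSC 202, 234 and 237 (0.242, 0.402 and 0.268 CPM). In EFPrx1MSCLC 219, 221, 225 and 229 it stood at 51.9, 93.9, 27 and 125 CPM, which spans the ha values.

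Prss12 (ENSMUSG00000027978, chr3:123446913-123506597, plus strand) was the least complete in its absence. It had no count in EF, hr 1-1 or hr 1-2, but 1.13 CPM in hr 2-1 and 1.58 CPM in hr 2-2, a close pair of libraries, against 26.2 and 30.8 CPM in ha 1 and ha 2. The level in ha was at least 227-fold above EF and 41.3-fold above hr (29.3 to 60). In experiment 1 it ranged from 0.173 CPM (3 counts, EFPrx1MSCLC 219) to 15.8 CPM (EFPrx1MSCLC 221), with 1.71 and 9.69 CPM in EFPrx1MSCLC 225 and 229 and 7.77, 1.88 and 2.21 CPM in MSC 202, 234 and 237. EFPrx1MSCLC 219 thus had nearly none, as in EF.

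Tll1 (ENSMUSG00000053626, chr8:64014931-64206271, minus strand) had the lowest level per length in ha, 2 CPM per kb of exon. It stood at 9.37 CPM in ha 1 and 21.7 CPM in ha 2, with 1 count in EF 2 and no other count in EF or hr. The ratio to EF was 379-fold (67.7 to 15009), and the level was at least 260-fold above hr; without ha 2 these were 223-fold and at least 153-fold. In experiment 1 Tll1 was at 9.54, 0.804 and 1.81 CPM in MSC 202, 234 and 237, and at 5.99, 27.2, 30.8 and 20.8 CPM in EFPrx1MSCLC 219, 221, 225 and 229. Of those 4 libraries, all but EFPrx1MSCLC 219 were above MSC 202, and all 4 above MSC 234 and 237.

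Both ubiquitin ligase genes differed little between the ha libraries. Fbxl7 (ENSMUSG00000043556, chr15:26540459-26895580, minus strand), a substrate receptor of SCF ubiquitin ligases, was at 50.7 and 39.1 CPM in ha 1 and ha 2. It had no count in EF, hr 1-1 or hr 1-2, 6 counts in hr 2-1 and 2 in hr 2-2, so the level in ha was at least 353-fold above EF and 272-fold above hr (138 to 632). In experiment 1 it was at 10.5, 6.16 and 4.83 CPM in MSC 202, 234 and 237 and at 4.09, 8.77, 2.1 and 8.16 CPM in EFPrx1MSCLC 219, 221, 225 and 229, with overlap between the groups. Rnf144a (ENSMUSG00000020642, chr12:26300964-26415254, minus strand), a ligase of the RING-between-RING kind, was at 30.3 and 35.5 CPM in ha 1 and ha 2. It had no count in EF and 2, 4, 0 and 1 counts in hr 1-1, 1-2, 2-1 and 2-2. The fold was at least 262 over EF and was 231 over hr (112 to 577). Experiment 1 gave 19.2, 12.7 and 20.7 CPM in MSC 202, 234 and 237 and 3.92, 6.89, 5.05 and 1.45 CPM in EFPrx1MSCLC 219, 221, 225 and 229, with every wild-type library above every EFPrx1MSCLC library.

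Dio2 (ENSMUSG00000007682, chr12:90724552-90738438, minus strand), which converts thyroxine to the active hormone, showed the largest gap of the 9 between the ha libraries. It was at 16.5 CPM in ha 1 and 75.3 CPM in ha 2, a ratio of 4.56 (counting interval 3.97 to 5.27), with 1 count in EF 2 and none in the other EF and hr libraries. The ratio to EF was 1140-fold (204 to 45059), and the level was at least 782-fold above hr. These became 393-fold and at least 269-fold without ha 2, and 1792-fold and at least 1229-fold without ha 1. In MSC 202, 234 and 237 it was at 11.2, 3.95 and 7.58 CPM, and in EFPrx1MSCLC 219, 221, 225 and 229 at 0.864, 7.31, 3.22 and 15.1 CPM.

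Pde7b (ENSMUSG00000019990, chr10:20398004-20725078, minus strand), a cAMP phosphodiesterase, was likewise higher in ha 2 (57.6 CPM) than in ha 1 (17.3 CPM), by 3.34 times (2.9 to 3.85). Its only other count in experiment 2 was 1 in EF 2, which gives 924-fold over EF (165 to 36513) and at least 633-fold over hr, or 411-fold and at least 282-fold without ha 2. In experiment 1 it was at 4.19, 2.81 and 5.03 CPM in MSC 202, 234 and 237. EFPrx1MSCLC 221 and 229, at 44.4 and 53.8 CPM, were in the range of ha, whereas EFPrx1MSCLC 219 and 225, at 5.36 and 3.35 CPM, were near the wild type. The same split, with 221 and 229 above 219 and 225, was also seen in Egflam, Prss12, Fbxl7 and Dio2, and not in Sdk1, Rnf144a, Tll1 or Tril.

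Tril (ENSMUSG00000043496, chr6:53815468-53820830, minus strand), the accessory protein of toll-like receptors, had no count in any EF or hr library. It was at 23.6 CPM in ha 1 and 12.1 CPM in ha 2, so at least 138-fold above EF and at least 284-fold above hr. Tril and Fbxl7 were lower in ha 2 than in ha 1, while the other 7 genes were higher in ha 2; the 2 ha libraries therefore did not share one scaling of the 9 genes. In experiment 1 Tril was at 2.74, 1.41 and 0.403 CPM in MSC 202, 234 and 237 and at 2.76, 4.07, 7.28 and 4.02 CPM in EFPrx1MSCLC 219, 221, 225 and 229.

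Per length, the order of the mean levels in ha was Sdk1 (19.8 CPM per kb of exon), Prss12 (11), Dio2 (7.9), Egflam (7.48), Fbxl7 (6.88), Rnf144a (4.48), Tril (3.32), Pde7b (3.01) and Tll1 (2). The mean CPM ± SD in ha (n = 2) was 219 ± 44 for Sdk1, 28.5 ± 3.26 for Prss12, 45.9 ± 41.6 for Dio2, 45.8 ± 26.1 for Egflam and 44.9 ± 8.23 for Fbxl7. Dio2, Egflam and Fbxl7 are neighbours in that order and did not differ beyond their spread. The other steps of the order were not tested either, and with n = 2 the order is only a description. For Rnf144a, Tril, Pde7b and Tll1 the mean CPM was 32.9 ± 3.71, 17.8 ± 8.12, 37.5 ± 28.5 and 15.5 ± 8.7 (SD, n = 2).

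Experiment 1 was not used to choose the genes, and it allowed a test of EFPrx1MSCLC against wild-type MSC. By edgeR's quasi-likelihood test over 14596 genes, Egflam was higher and Rnf144a lower in EFPrx1MSCLC, and the other 7 genes did not pass an adjusted p of 0.05. Over all genes tested, 7.70% were called higher and 12.1% lower. Egflam rose by 7.67 ± 0.72 (log2 fold change ± SE, adjusted p = 0.00144), higher in 4 of 4 EFPrx1MSCLC libraries than in any MSC library. Rnf144a changed by -2.26 ± 0.52 (log2, adjusted p = 0.0225, edgeR), lower in 4 of 4 EFPrx1MSCLC libraries than in any MSC library. Its call was lost without MSC 234 (adjusted p = 0.0517) and without MSC 237 (adjusted p = 0.0877).

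Of the genes without a call, Pde7b had a log2 fold change of 2.48 ± 1.01 (adjusted p = 0.12, edgeR) and Tll1 one of 2.13 ± 0.93 (adjusted p = 0.142, edgeR). DESeq2 called both higher, at adjusted p-values of 0.0268 and 0.0441, and limma-voom called neither. DESeq2 called more genes in general, with 2043 of all 14596 higher against 1124 by edgeR. Tril had 1.32 ± 0.71 (adjusted p = 0.221, edgeR). Its groups nearly touched, at 2.74 CPM in MSC 202, the highest of that group, and 2.76 CPM in EFPrx1MSCLC 219, the lowest of the other. Values for Prss12 (0.52 ± 1.22), Sdk1 (-0.04 ± 0.53), Dio2 (-0.44 ± 0.85) and Fbxl7 (-0.58 ± 0.56) were within about 1 SE of 0. The median log2 fold change of the 9 genes was 0.52, against 0.04 over all genes tested. Leaving out MSC 202 moved Tll1 to 3.80 and past the threshold (adjusted p = 0.0203). Without a call, Tril moved to 2.08 without MSC 202 and 0.87 without MSC 237, and Dio2 to -0.02 without MSC 202 and -1.30 without EFPrx1MSCLC 229. Markers of blood cells moved with the groups: 10 of 10 hematopoietic markers were at 1 CPM or more in every MSC library, where they summed to 10200 to 29200 CPM, and 2 of 10 were in every EFPrx1MSCLC library, with sums of 28.9 to 429 CPM. Sex markers also differed. Ddx3y, a Y chromosome gene, was at 87.5 and 43.1 CPM in MSC 202 and 234, and at 0.134 CPM in MSC 237. It was at 0 to 0.0656 CPM in EFPrx1MSCLC. Xist was at 2.38, 1.94 and 507 CPM in MSC 202, 234 and 237, and at 794 to 1331 CPM in EFPrx1MSCLC. The part of the blood cell and sex markers in these differences was not tested.

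**Figure D2:**
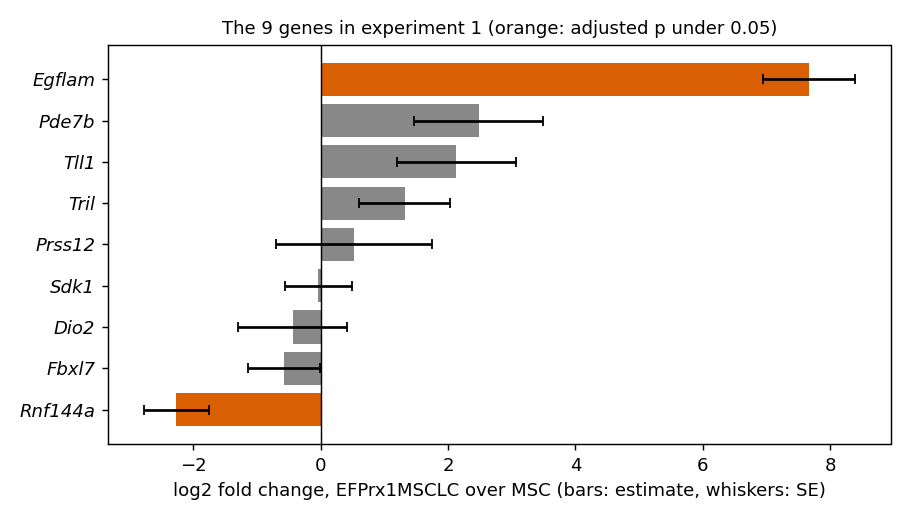
Log2 fold change of the 9 genes between the 4 EFPrx1MSCLC and the 3 MSC libraries of experiment 1. Whiskers are the standard error, taken as the absolute log2 fold change over the square root of edgeR's F statistic. Egflam (7.67) and Rnf144a (-2.26) are the 2 genes past the adjusted p threshold of 0.05, in orange; the other 7 are grey.

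A pattern of at least 5 CPM in both ha libraries and at most 0.5 CPM in all EF and hr libraries was found for 60 of the 10357 genes with at least 5 CPM in both ha libraries, or 0.579%. Of the 9 genes, 8 were among these 60, which follows from how they were picked, and Prss12 fell outside through hr 2-1 and hr 2-2. Among the 52 others were Lama4, a laminin chain of vessel and muscle basement membranes (184 and 166 CPM in ha 1 and ha 2), the growth factor Igf2 (27.4 and 25.8 CPM), Angpt1, a ligand of the Tie2 receptor (29 and 65.5 CPM), and Mc5r, a melanocortin receptor (59.7 and 28.8 CPM); these 4 were chosen for mention after their values were seen. Like the 9 genes, most of the 52 were not silent elsewhere: 34 were at 1 CPM or more in EFPrx1MSCLC 221, 33 in all 3 MSC libraries and 19 in all 7 libraries of experiment 1. In all 7, 4 of the 52 were under 1 CPM.

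The 8 genes most like the mean profile of the 9, by Pearson's r of log2(CPM + 0.5) over the 8 libraries of experiment 2 among 10348 candidates, were Fam13c (0.9987), Fam49a (0.9986), Tspan7 (0.9985), Tmtc1 (0.9983), Bcl11a (0.9981), Pappa (0.9981), Pde8b (0.9980) and Olfm2 (0.9979). These libraries share a flowcell and include close pairs, and a gene high in both ha libraries and low in the rest gets an r near 1 by construction. Outside experiment 2 the 8 genes went different ways. Pappa, a protease of IGF-binding proteins, was at 163, 29 and 27.8 CPM in MSC 202, 234 and 237 and at 0.418 to 7.88 CPM in EFPrx1MSCLC. Bcl11a, a zinc finger repressor, was at 0.161 to 0.805 CPM in MSC and 15.2 to 93.7 CPM in EFPrx1MSCLC, the direction in which Egflam moved.

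Genes that work with the 9 were examined in 8 lists with 130 genes, each list built around the function of 1 or 2 of them. Over all lists, 42 of 110 genes tested were higher in ha than in EF and 10 lower, where 23.0% and 19.6% of all 13998 genes tested were called in these directions. In ha against hr, 42 of 110 were higher and 11 lower, where 21.5% and 17.9% of all genes were. Both comparisons use the same 2 ha libraries. Of the 110, 7 reached 10 counts in fewer than 2 of the 6 EF and hr libraries and so passed the count filter through ha; without them, 36 of 103 were higher and 10 lower over EF, and 38 higher and 11 lower over hr. This split was chosen after the values were seen, and Dscam, Musk and Pde8b are among the 7. The median log2 fold change of the 110 genes was 0.35 over EF and 0.33 over hr, against 0.05 and 0.00 for all genes. With close library pairs summed, 11 genes were called over hr (9 higher, 2 lower), against 843 higher and 429 lower of all 15959 genes tested. Without those that passed the filter through ha, 6 were higher. Over EF most calls were lost in that setting, which leaves 1 EF sample, and fewer genes were called without EF 1 or EF 2.

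**Figure D3:**
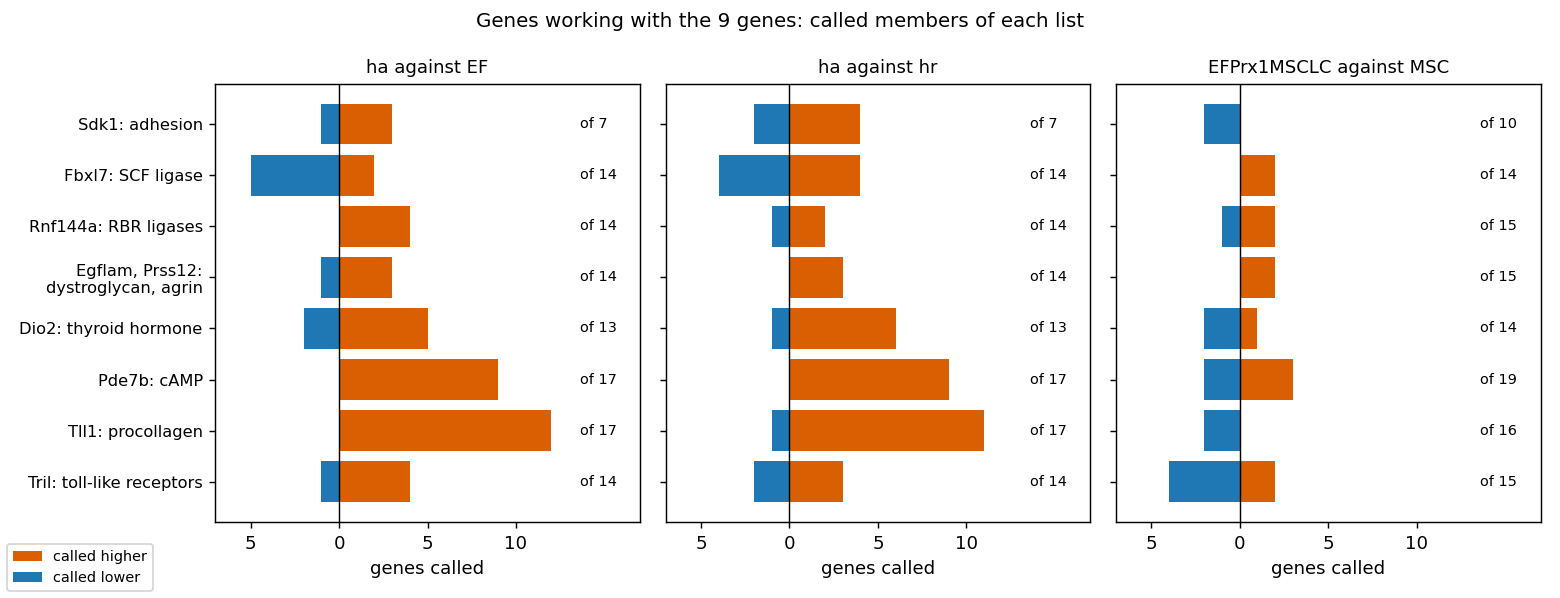
Number of genes called higher (orange, to the right) or lower (blue, to the left) at an adjusted p under 0.05 by edgeR in each of 8 lists, for 3 comparisons; the figure at the right of each row is the number tested. The Tll1 list has 12 of 17 genes higher over EF and 11 of 17 over hr, where 23.0% and 21.5% of all genes are. It has none of 16 higher in EFPrx1MSCLC against MSC, where 7.70% of all genes are.

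The procollagen list of Tll1 had the largest share of genes called higher in both comparisons. Of its 17 tested genes, 12 were higher in ha than in EF and none lower (median log2 fold change 1.68), and over hr 11 were higher and 1 lower (median 1.20). Bmp1, the close relative of Tll1 with the same procollagen C-proteinase activity, was at 228 and 165 CPM in ha 1 and ha 2, 42.3 and 43.4 CPM in EF 1 and EF 2, and 64.2 to 80.5 CPM in hr. It was higher by 2.21 ± 0.20 over EF (log2, adjusted p = 0.00034) and by 1.48 ± 0.16 over hr (adjusted p = 0.000571), and it stayed past the threshold with close pairs summed. Loxl1, a collagen and elastin crosslinking oxidase, rose by 1.87 over EF and 2.19 over hr; both calls also held with close pairs summed. In all, 2 genes of the list were then called higher over EF, and 3 higher and 1 lower over hr. Bgn, the proteoglycan biglycan, rose by 1.68 and 1.14, and Col1a2, a chain of type I collagen, by 1.26 and 1.20; with close pairs summed these lost their calls (adjusted p of 0.0546 and 0.0588 for Bgn, 0.105 and 0.065 for Col1a2). In experiment 1 the list had no gene higher and 2 of 16 lower, Col1a1 (-2.84) and Col3a1 (-4.96), both fibrillar collagen chains. Over all genes tested there, 7.70% were higher and 12.1% lower, so the share lower was near that of all genes.

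In the cAMP list of Pde7b, 9 of 17 tested genes were higher in ha than in EF and 9 than in hr, with none lower in either (medians 0.70 and 0.71). Pde8b passed the count filter through ha, and without it 8 of 16 were higher in each comparison. With close pairs summed, Pde8b alone was higher over hr, so 0 were without it. Pde7a, the closest relative of Pde7b, was at 96.9 and 59 CPM in ha 1 and ha 2 against 31.4 and 30.5 CPM in EF and 38.5 to 40.7 CPM in hr. These were log2 changes of 1.35 ± 0.24 over EF (adjusted p = 0.00365, edgeR) and 1.00 ± 0.20 over hr (adjusted p = 0.00614). Pde7a was thus present where Pde7b had no counts. Both calls of Pde7a were lost with close pairs summed (adjusted p = 0.106 and 0.112). Pde8b, another cAMP phosphodiesterase, had the pattern of the 9 genes, at 13.2 and 14.7 CPM in ha against 2 counts in EF and 3 in hr, a ratio of 166-fold over EF (45.7 to 1375) and 228-fold over hr (77.3 to 1108). Prkacb, a catalytic subunit of protein kinase A, rose by 0.70 over EF and 0.71 over hr; with close pairs summed its adjusted p-values were 0.151 and 0.0927. Pde4d rose by 1.37 over EF and had 0.27 over hr (adjusted p = 0.358, edgeR); over EF its adjusted p was 0.166 with close pairs summed.

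The thyroid hormone list of Dio2 had 5 of 13 genes higher and 2 lower in ha than in EF, and 6 higher and 1 lower than in hr. Among all genes, 23.0% were higher and 19.6% lower over EF, and 21.5% and 17.9% over hr. Klf9, a hormone-responsive transcription factor, rose by 1.97 over EF and 1.17 over hr, with both calls kept when close pairs were summed. The receptor gene Thra rose by 2.04 and 1.46 and the coactivator Ncoa1 by 1.37 and 1.10, and these 2 genes lost their calls with close pairs summed (adjusted p of 0.0652 and 0.0619 for Thra, 0.0797 and 0.0667 for Ncoa1). Dio1, the relative of Dio2 known from liver and kidney, had no count in any of the 15 libraries. Dio3, which inactivates the hormone, was at 10.3, 12.4 and 15.3 CPM in MSC and at 0 to 1.05 CPM in all other libraries; it was lower in EFPrx1MSCLC, at -5.52 ± 1.18 (log2, adjusted p = 0.0183), a call lost without MSC 234 (adjusted p = 0.0585) or MSC 237 (adjusted p = 0.0645).

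Of the dystroglycan and agrin list of Egflam and Prss12, 3 of 14 tested genes were higher in ha than in EF and 1 lower, and 3 were higher and none lower than in hr. The shares higher were near those of all genes, and the shares lower were below them. Agrn, the matrix protein that neurotrypsin cleaves and that resembles pikachurin in its dystroglycan-binding domains, was at 97.6 and 71.3 CPM in ha 1 and ha 2, 35.6 and 33 CPM in EF and 31.3 to 46.4 CPM in hr, changes of 1.32 ± 0.23 and 1.15 ± 0.19. Pomgnt2, a glycosyltransferase that builds the sugar chain of dystroglycan, rose by 1.44 over EF and 1.20 over hr. Musk, the receptor kinase of the agrin pathway, was under 1 CPM in both ha libraries (0.909 and 0.977 CPM) and at 0 in EF. Utrn, the cytoplasmic link of dystroglycan, was lower over EF (-0.37) with -0.03 over hr (adjusted p = 0.869, edgeR). All 4 calls over EF were lost with close pairs summed (adjusted p of 0.0927, 0.129, 0.129 and 0.353, in this order), and so were those of Agrn, Pomgnt2 and Musk over hr (0.0673, 0.109 and 0.144).

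The adhesion list of Sdk1 had few measured members: 7 of 15 genes were tested, 3 were higher and 1 lower in ha than in EF, and 4 were higher and 2 lower than in hr. With 7 genes these shares are coarse beside the 23.0% and 19.6% of all genes over EF and the 21.5% and 17.9% over hr. Sdk2, the closest relative and heterologous counterpart of Sdk1, was under 2 CPM in every library and under 0.4 CPM in experiment 2. Ncam1, a neural and mesenchymal adhesion molecule, was at 89.3 and 113 CPM in ha, 19.4 and 18.7 CPM in EF and 35.2 to 41.8 CPM in hr, changes of 2.41 ± 0.13 (adjusted p = 6.98e-05, edgeR) and 1.40 ± 0.11 (adjusted p = 0.000116). Dscam, an adhesion molecule of neurons, had 2 counts in EF and 5 in hr and was at 8.25 and 5.92 CPM in ha 1 and ha 2, or 83.4-fold over EF (22.8 to 693). Ncam1 kept its call with close pairs summed; Dscam, which passed the count filter through ha, was also past the threshold there. Magi2, the scaffold protein that binds sidekick tails, rose by 1.15 and 0.83, and Nectin3 was lower by log2 values of -0.74 and -0.41; with close pairs summed these 2 genes lost their calls (adjusted p of 0.131 and 0.153 for Magi2, 0.106 and 0.209 for Nectin3).

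The SCF ligase list of Fbxl7 was the list with more genes lower than higher in ha against EF, 5 against 2 of 14, and over hr the counts were 4 and 4. For all genes the shares lower and higher were 19.6% and 23.0% over EF and 17.9% and 21.5% over hr. Aurka and Birc5, mitotic proteins that Fbxl7 is known to mark for degradation, were lower in ha than in EF by log2 values of -1.44 and -1.75 and than in hr by -0.89 and -1.30. These are RNA levels and say nothing of the proteins' turnover. Skp2, the F-box protein of the cell cycle, was lower too, at -1.45 and -0.48. Fbxl20, a relative of Fbxl7, was at 89.9 and 90.8 CPM in ha, 25.5 CPM in both EF libraries and 34.2 to 45.4 CPM in hr, changes of 1.83 ± 0.15 and 1.20 ± 0.12. The relative Fbxl2 moved the other way, at -0.65 ± 0.15 over EF and -0.68 ± 0.13 over hr. With close pairs summed, the calls of Fbxl20 and Birc5 held in both comparisons, that of Skp2 over EF held and over hr was lost (adjusted p = 0.191), and Aurka (0.0913 and 0.157) and Fbxl2 (0.193 and 0.132, adjusted p) lost both.

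In the Rnf144a list, which holds RING-between-RING ligases and genes that work with Rnf144a, 4 of 14 were higher and none lower in ha than in EF, and 2 were higher and 1 lower than in hr. Its share higher over EF was near the 23.0% of all genes, and that over hr was below their 21.5%. Both shares lower were below the 19.6% and 17.9% of all genes. Rnf144b, the closest relative, was at 1.68 and 2.26 CPM in ha and 1.38 to 2.68 CPM in the other libraries of experiment 2 and had no call. Rnf19a rose by 1.79 over EF and 0.97 over hr, and Rnf216 by 0.39 and 0.60. Rnf19b was higher by 0.76 over EF and had 0.12 over hr without a call. The calls of Rnf19a, Rnf216 and Rnf19b over EF did not hold with close pairs summed (adjusted p of 0.0618, 0.398 and 0.278, in this order), nor did those of Rnf19a and Rnf216 over hr (0.105 and 0.139). In experiment 1 Rnf216 rose by 0.88 and Rnf19b was lower at -1.56, the direction in which Rnf144a moved.

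The toll-like receptor list of Tril had 4 of 14 genes higher and 1 lower in ha than in EF, and 3 higher and 2 lower than in hr. The shares higher were near the 23.0% and 21.5% of all genes. Neither share lower exceeded the 19.6% and 17.9% of all genes. The adaptor Myd88 was at 29.7 and 36.5 CPM in ha, 19.1 and 18 CPM in EF and 16.8 to 18.5 CPM in hr, changes of 0.84 ± 0.13 and 0.90 ± 0.11. The kinase Irak4 rose by 1.42 over EF and 0.58 over hr. Tlr3, a receptor of double-stranded RNA, rose by 1.21 over EF and had 0.58 over hr (adjusted p = 0.189, edgeR), and the transcription factor Irf3 was lower at -0.44 and -0.41. With close pairs summed all 4 calls over EF were lost (adjusted p of 0.119, 0.054, 0.239 and 0.276, in this order), and so were those of Myd88, Irak4 and Irf3 over hr (0.0615, 0.172 and 0.239). In experiment 1, 4 of 15 genes of the list were lower and 2 higher, against 12.1% and 7.70% of all genes. Among the lower were Cd14 (-4.64) and Tlr2 (-5.21), which blood cells also express. The hematopoietic marker sums given above differed in the same direction, and their part was not tested.

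**Figure D4:**
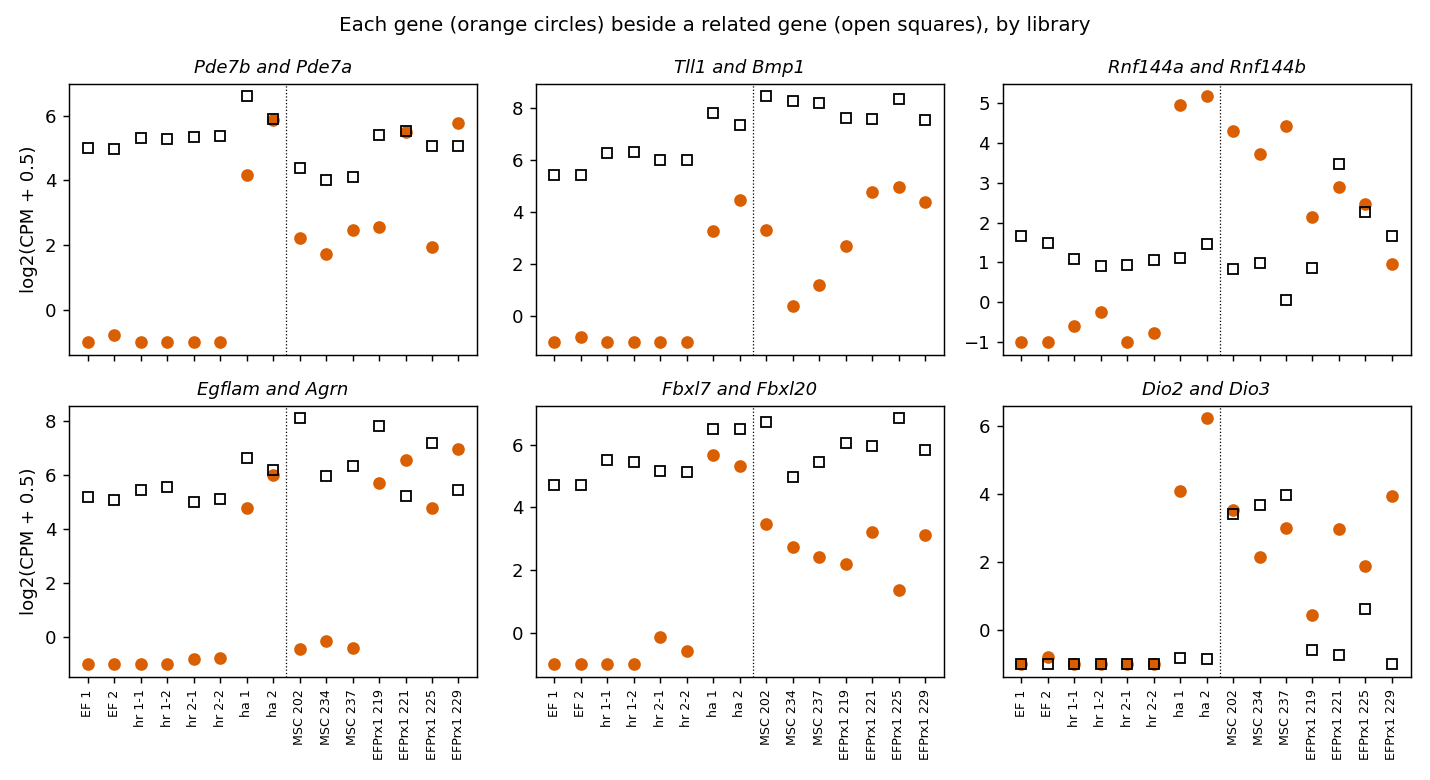
The levels of 6 of the 9 genes (orange circles) and a related gene of each (open squares) as log2(CPM + 0.5) in every library, with experiment 2 to the left of the dotted line. Pde7a, Bmp1, Agrn and Fbxl20 are at 25 CPM or more in EF and hr libraries where Pde7b, Tll1, Egflam and Fbxl7 have at most 6 counts, and Dio3 is above 2 CPM in the 3 MSC libraries alone.

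The nearest tested gene on each side of each of the 9 genes was compared between ha and EF, since neither neighbour was used in the choice. Of 18 neighbours, 5 were higher and 3 lower in ha, and 10 had no call, against the 23.0% and 19.6% of all genes; the median log2 fold change was 0.16, against 0.05. Lifr, the receptor of leukemia inhibitory factor, lies 8.63 kb from Egflam. It was at 12.7 and 42.1 CPM in ha 1 and ha 2, against 7 counts in EF and 12 in hr, a ratio of 96.4-fold over EF (46.6 to 240). Unlike Egflam, Lifr was at 8.91 to 26.9 CPM in wild-type MSC. Rsad2, an interferon-induced gene 27.5 kb from Rnf144a, was at 4.69 and 2.56 CPM in ha with 1 count in EF, and Ddx60, also interferon-induced and 1977 kb from Tll1, at 3.64 and 7.51 CPM with 4 counts in EF. Lifr, Rsad2 and Ddx60 each reached 10 counts in fewer than 2 of the EF and hr libraries and passed the count filter through ha. Without these 3, 2 of 15 neighbours were higher and 3 lower. Adck1 (0.67) and Ahi1 (0.79) were higher to a smaller degree. The lower neighbours were Snhg8, 0.955 kb from Prss12 (-0.67), Gna12 near Sdk1 (-0.47) and Mtfr2 near Pde7b (-1.32). Most of the 8 calls were lost with close pairs summed, which leaves 1 EF sample. Lifr, 1 of the 3 that passed the filter through ha, then had a log2 fold change of 6.46. Gm47750 near Rnf144a, which had no call before, then had -2.40. Without EF 2, 3 neighbours were called in all, and without EF 1, 4, in place of 8.

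Markers of other cell types also differed between the groups that set the 9 genes apart. Smooth muscle and pericyte markers summed to 430 and 938 CPM in ha, 255 and 268 CPM in EF and 168 to 272 CPM in hr. Acta2 was at 254 and 601 CPM in ha 1 and ha 2, against 33.4 to 92.3 CPM in EF and hr, and Tagln and Notch3 were also higher. Cspg4 was lower, at 98.1 and 52 CPM against 104 to 170 CPM, and Des was lower than in EF. Cnn1, Myh11 and Rgs5 were under 1 CPM in experiment 2. The 8 astrocyte markers summed to 15 and 26.4 CPM in ha and 3.73 to 8.26 CPM in EF and hr. Aqp4, a defining astrocyte gene, was at 0 in all 15 libraries. The 10 neuron markers (Sdk1, Prss12 and Dscam are best known in neurons) summed to 20.1 and 25.9 CPM in ha, 15.2 and 15.4 CPM in EF and 22.8 to 32.7 CPM in hr. Of the 10, 4 were at 0 in ha. Map2 was at 14 and 14.2 CPM in ha 1 and ha 2 and at 0.352 CPM or less in EF and hr, while Tubb3 and Stmn2 were lower in ha. Endothelial markers summed to 15 and 22.2 CPM in ha, 19 and 20.5 CPM in EF and 8.54 to 17.5 CPM in hr. Epithelial markers summed to less in ha, at 0.794 and 1.12 CPM against 13.2 to 39.1 CPM in EF and hr. Most of that sum was Krt19 alone, at 10 to 35.1 CPM in EF and hr and 0.14 and 0.122 CPM in ha 1 and ha 2. Krt8 was at 0.878 to 3.61 CPM in EF and hr. The other epithelial markers were under 1 CPM in every library of experiment 2, with Epcam at 0. Whether such cells were present was not tested, nor was their part in the levels of the 9 genes.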

How the data were processed

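The authors deposited a table of RSEM expected counts per gene for 15 libraries, made with STAR and RSEM on GRCm38.p6 per the submitters' processing notes; their versions, the annotation release and the strand setting are not stated there. Of all expected counts in the table, 8.27% were not whole; they were rounded for the tests, which changed a library's total by at most 0.000579%. CPM is the count over the library total. The SE of a log2 fold change was derived as its absolute value over the square root of edgeR's F statistic. Symbols came from a table of gene IDs (55144 of 55471 matched), and positions and exon lengths from an annotation of the same build. Tests used edgeR 4.0.16 in R 4.3.3 (filterByExpr with a minimum count of 10, TMM, quasi-likelihood with robust dispersion, two-sided), with Benjamini-Hochberg adjustment over all genes tested and a threshold of 0.05, separately in experiment 1 (7 libraries) and experiment 2 (8 libraries, shared spread). The experiments lie on different flowcells and were not compared by a test.

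The 9 genes and all gene lists were chosen with earlier results of these data known. Named genes were the 9, the related genes on a list, up to 4 genes per functional list called in ha against EF by lowest p, the called nearest neighbours, and the 8 genes most correlated with the mean profile; 2 genes that this rule names are not reported here. Cell type lists covered mesenchymal, neuron, astrocyte, hematopoietic, endothelial, epithelial, and smooth muscle and pericyte markers. Sex markers were also examined. Alternatives were DESeq2 (1.42.0) and its size factors, limma-voom (3.58.1), no filter, a filter of 1 CPM, leaving out each library, a replicate block, only the groups compared, and close library pairs summed. Motifs were searched in RefSeq promoter windows. The edgeR step was tested on simulated counts.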

Additional observations from a re-analysis of the deposited data

Results flagged for a closer look

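In 4 of 24 groups of 4 libraries examined (the 9 genes and their relatives in EFPrx1MSCLC and hr, where a group had at least 10 counts), 1 library lay far from the other 3 (the gap to its nearest neighbour, over the whole range, passed Dixon's 95% critical value). Chance gives about 1 in 20 for independent libraries, which the close hr pairs are not; all 4 were in EFPrx1MSCLC. Sdk1 was at 57.8 CPM in EFPrx1MSCLC 219, against 16.4 to 20.9 CPM in EFPrx1MSCLC 221, 225 and 229. The other 3 were all in EFPrx1MSCLC 225 and among relatives of the 9 genes. Fbxl20 was at 115 CPM there, against 56.7 to 65.8 CPM in the other 3 libraries. Bmp1 was at 331 CPM there, against 190 to 200 CPM. Dio3 was at 1.05 CPM there, against 0 to 0.173 CPM.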

How the results depend on the processing

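Without ha 2, the folds of Dio2, Pde7b, Egflam and Tll1 fell by 2.9, 2.25, 1.72 and 1.7 times, and that of Dio2 over EF rose from 1140 to 1792 without ha 1; those of the other 5 genes moved by at most 1.44 times. In experiment 1, 2 of the 9 genes were called (1 higher, 1 lower), against 4 (3 higher) by DESeq2, and 1 to 3 (1 to 2 higher, 0 to 1 lower) with a library left out. Sdk1, at -0.04, turned to 0.34, 0.11, 0.01 and 0.06 without MSC 202 or EFPrx1MSCLC 221, 225 or 229, and Prss12, at 0.52, to -0.49 by limma-voom and -0.32 without EFPrx1MSCLC 221; none of these was called. With each library left out they ranged from -0.65 to 0.34 and from -0.32 to 1.498. Listed genes called in experiment 1 numbered 25 of 118 tested (12 higher, 13 lower), where 7.70% and 12.1% of all genes were called in these directions. They numbered 47 by DESeq2 (24 and 23), 7 higher with no filter, and 10 to 42 (0 to 27 higher, 10 to 18 lower) with a library left out. The calls over all genes moved as well. DESeq2 called 2043 higher and 2555 lower of all 14596 genes, against 1124 and 1763 by edgeR. With no filter, 862 of 28691 were higher. With a library left out, 245 to 2519 were higher and 974 to 2568 lower. In ha against EF, 52 (42 higher, 10 lower) became 10 (8 and 2) with close pairs summed and 26 to 44 (22 to 35 higher, 4 to 9 lower) with a library left out. In ha against hr, 53 (42 and 11) became 11 (9 and 2) and 42 to 53 (33 to 43 higher, 6 to 10 lower). Of 18 neighbours, 8 were called (5 higher, 3 lower), and 11 by DESeq2 (6 higher, 5 lower). DESeq2 called 3353 higher and 2988 lower of all genes there, against 3214 and 2747 by edgeR. Most of the 8 calls were lost with close pairs summed, and the number also fell without EF 1 or EF 2. Over hr, Utrn (-0.03) turned to 0.014, 0.0060 and 0.039 without hr 2-2, hr 2-1 or ha 1 (range -0.099 to 0.039), and Rnf19b (0.12) to -0.30 without ha 1 (range -0.30 to 0.44). Summing close pairs leaves 1 EF, 2 hr and 2 ha samples, with the lone EF sample assumed to vary like the others. The last title numbers did not pair the libraries (correlations of deviations from -0.030 to 0.017 over 13998 genes). With them as a replicate block, 38 listed genes were called over EF, 50 over hr, and 9 neighbours. Genes under about 10 counts in a group are limited by depth.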
